A study of Homo sapiens with 15 samples.

Results

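The comparison described here sets the combination of thymoquinone and 5-fluorouracil (Combi) directly against thymoquinone (TQ) alone, and so shows what stood out when 5-fluorouracil (5-FU) was present beside a similar dose of TQ. All 730 of the 730 endogenous genes on the panel entered it, with none chosen by its values, and 6 of the 15 samples of the series. The cells were HCT116, an established human colorectal cancer line, collected 24 h after treatment in 3 samples a group, so every result concerns a single line. TQ cells received 40 µM TQ, and Combi cells received 35 µM TQ together with 35 µM 5-FU. Control cells were left untreated and 5-FU cells received 15 µM 5-FU, so the 5-FU dose was higher in Combi than in the single treatment and the TQ dose was lower. The compounds came from stocks in DMSO, and the sources used here do not say whether the control cells received DMSO. A further group, not used here except for the spread in the fit, received 35 µM of a TQ and 5-FU hybrid named SARB. Transcripts were counted with the NanoString PanCancer Pathways panel, in which a pair of probes captures each transcript and a color barcode on it is counted without amplification.

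TQ is a quinone from the seed oil of black cumin. Quinones of this kind react with thiol groups and can provoke the heat shock and oxidative stress responses. 5-FU is a pyrimidine analog that blocks thymidylate synthase and is built into RNA and DNA, and it is a standard drug for colorectal cancer. DNA damage of this kind stabilizes p53, a transcription factor that HCT116 cells carry in the wild-type form, and p53 then raises genes for cell cycle arrest, for apoptosis and for its own inhibitor MDM2. Histone genes of the replication-dependent kind are transcribed in S phase, and their mRNA is lost when DNA synthesis stops.

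Total counts of the endogenous genes were 135017, 513114 and 183031 in the TQ samples and 287333, 607782 and 527078 in the Combi samples. In the following, scaled counts are raw counts brought to the same geometric mean of the 40 housekeeping genes, and means are given ± SD over 3 samples. Calls required both a change of 1.5-fold or more and an adjusted p no higher than 0.05. The labels do not say whether the 3 samples of a group came from separate cultures, so the p-values measure only the spread between these samples. All TQ samples ran on cartridge 1 together with control replicate 1 and the 5-FU samples. Combi replicate 1 ran on cartridge 2 with control replicates 2 and 3, and Combi replicates 2 and 3 ran alone on cartridge 3. No cartridge therefore held both Combi and TQ, and in the direct comparison cartridge and treatment cannot be told apart. A fit with cartridge as a block ties the groups together through the control samples, setting Combi replicate 1 over control replicates 2 and 3 against TQ over control replicate 1.

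Combi held many more genes above TQ than below it. Of the 730 genes, 207 (28.4%) were called higher in Combi and 42 (5.75%) lower. The 3 Combi samples lay all above the 3 TQ samples in 327 genes (44.8%) and all below them in 92 (12.6%). The scaling moved this balance. Over all genes the log2 fold change had a median of 0.56 after housekeeping scaling and 0.19 after TMM normalization, a shift of 0.36, and TMM called 115 genes higher and 95 lower. The housekeeping genes themselves had log2 ratios of Combi over TQ from -0.95 to 1.34, and 9 of the 40 passed 1.5-fold. The scaled background was higher in Combi as well. The negative probes stood at 7.65, 3.55 and 7.25 scaled counts in TQ and at 14.6, 7.25 and 9.81 in Combi, a log2 ratio of the means of 0.78, and the median log2 fold change of the 221 genes with a mean under 20 was 0.87. Of those dim genes 42 were called higher and 1 lower, and the part of the background in these calls was not tested. For these reasons the genes called in the same direction after housekeeping scaling, after TMM and after subtraction of the negative probes are given below as called with all 3 scalings. They were 107 higher (14.7%) and 42 lower (5.75%), and in all of them the Combi and TQ samples did not overlap. As RNA was measured in bulk, fewer cells of a kind and less RNA per cell cannot be told apart. With cartridge as a block 35 genes were called higher (4.79%) and 7 lower (0.959%).

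**Figure D1:**
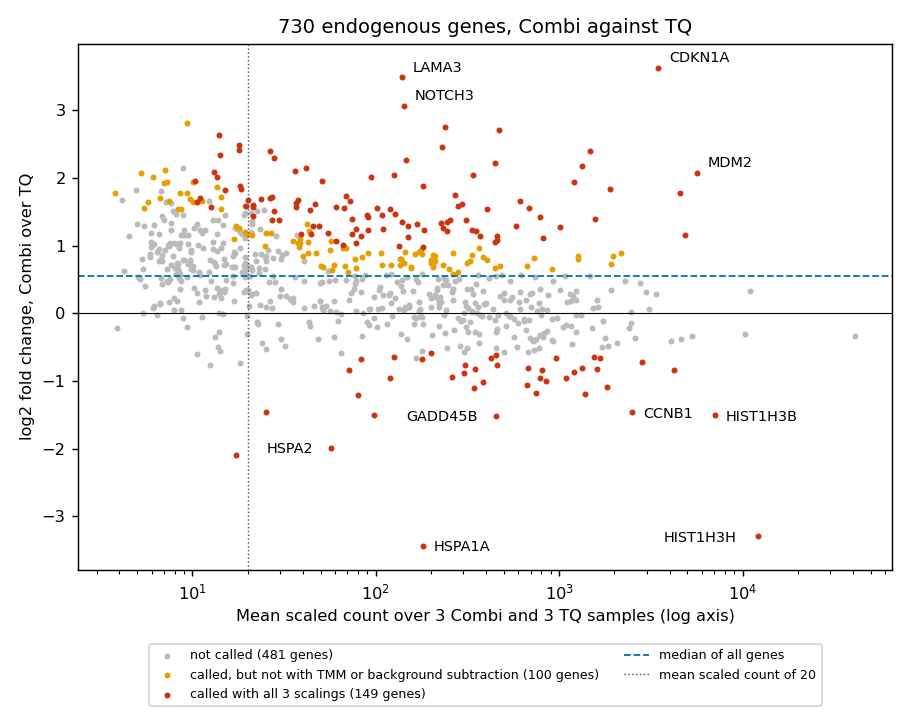
The vertical axis gives the log2 fold change of Combi over TQ and the horizontal axis the mean scaled count over the 6 samples on a log axis, 1 point per gene. Red points are the 149 genes called with all 3 scalings, orange points 100 genes called after housekeeping scaling but not with all 3, gray points the rest. The dashed line marks the median of 0.56, and the genes left of the dotted line at 20 scaled counts lie mostly above 0.

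Most direct targets of p53 were called higher in Combi. Of the 16 on the panel, 14 were called higher (28.4% of all genes) and none lower, 11 with all 3 scalings (14.7%). The list's median log2 fold change was 1.49 against 0.56 over all genes. Like the other lists, it was chosen with earlier results of these data known. Its members CDKN1A, GADD45A, FAS, BAX, PML, SFN and EPHA2 were already known to be raised in the 5-FU samples of this series. The share called higher therefore describes this list and is no independent test of p53 targets against all genes. CDKN1A, which encodes the CDK inhibitor p21, had 526, 536 and 496 scaled counts in the 3 TQ samples and 5847, 6877 and 6598 in the 3 Combi samples. It also stood below its level of 768, 896 and 1346 in the control in every TQ sample. It was higher by 3.63 on the log2 scale (standard error, SE, 0.19, adjusted p = 3.5e-12, in which edgeR's quasi-likelihood p was corrected by Benjamini-Hochberg), a 12.4-fold difference and the largest increase on the panel among genes with a mean of at least 20. FAS, a death receptor, went from 139.5, 122 and 114 to 834, 819 and 786, higher by 2.71 on the log2 scale (SE 0.13). BAX, the pore-forming member of the BCL2 family, had 477, 456 and 505 in TQ and 1863, 2293 and 2353 in Combi (2.18, SE 0.14). MDM2, the ubiquitin ligase that degrades p53, measured 2211, 2106 and 2179 in TQ and 8421, 9365 and 9633 in Combi (2.08, SE 0.10). In none of these 4 genes did the groups come near each other, and the replicates of a group lay within a narrow band.

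SFN, encoding the 14-3-3 sigma protein that holds cells in G2, stood above the control in TQ already. It measured 1205, 1055 and 1250.5 scaled counts in control, 1944, 2027 and 2195 in TQ and 6969.9, 7208 and 7032 in Combi, so that the 3 groups were set apart in that order without overlap. Its log2 fold change of Combi over TQ was 1.78 (SE 0.11, adjusted p = 2.78e-11). The receptors for the death ligand TRAIL split by size. TNFRSF10C, a decoy receptor, rose from 76.4 ± 7.53 to 286 ± 39.4 (1.89) and TNFRSF10B, a signaling receptor, from 286 ± 67 to 628 ± 38.4 (1.14). TNFRSF10A (0.59) was called only after housekeeping scaling or background subtraction, and TNFRSF10D (0.57) missed the fold threshold. DDB2, a sensor of damaged DNA, rose from 347 ± 44.4 to 1017 ± 31 (1.56), and PCNA, the sliding clamp of DNA polymerases, from 427 ± 16.3 to 1141 ± 174 (1.42). GADD45A (0.81) and PML (0.68) were called higher but not with TMM, and the receptor kinase EPHA2 (1.28) and the growth factor binding protein IGFBP3 (1.84) with all 3 scalings, IGFBP3 at a low level of 7.56 ± 2.33 in TQ and 29.2 ± 3.11 in Combi. THBS1, a matrix glycoprotein, was the only member with a negative value, at 460.2, 332 and 462 in TQ and 356, 292 and 277 in Combi, a log2 difference of -0.43 that was not called with housekeeping scaling and was called lower with TMM. With cartridge as a block, a fit that rests for Combi on 1 sample, CDKN1A was at 2.95, FAS at 2.36 and SFN at 1.83. In that fit TNFRSF10B was at 1.06, GADD45A at 0.85 and THBS1 at 0.084.

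**Figure D2:**
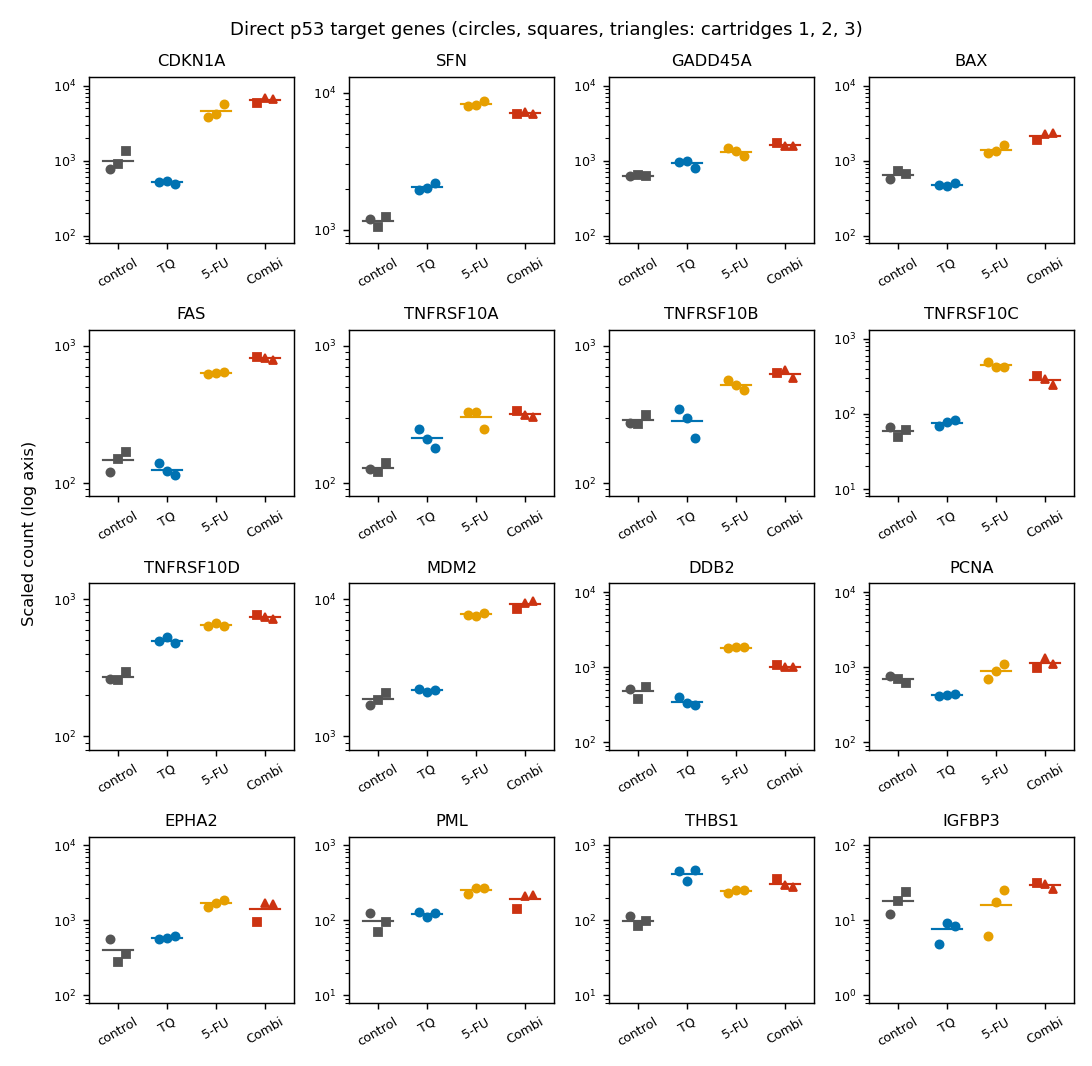
Each panel shows 1 of the 16 p53 target genes, with the scaled count on a log axis, 1 symbol per sample, and a bar at the mean of the 3 samples of control, TQ, 5-FU and Combi. Circles, squares and triangles are cartridges 1, 2 and 3. In 15 of the 16 panels all Combi samples lie above all TQ samples, and THBS1 is the exception.

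The largest deficit in Combi was that of HSPA1A, and the other HSP70 genes on the panel went with it. HSPA1A, which encodes the stress-inducible HSP70 chaperone, had 416, 253 and 329 scaled counts in the 3 TQ samples and 17, 33.2 and 36.5 in the 3 Combi samples. The control had 27.7, 21.2 and 30.2, so the Combi samples, which had received TQ as well, overlapped the control and not TQ. Of the Combi samples 2 were above the background of the negative probes, for HSPA1A as for HSPA2. The log2 fold change of Combi over TQ was -3.43 (SE 0.37, adjusted p = 3e-07 by the same test), 10.8-fold lower in Combi. The near-identical gene HSPA1B is not on the panel, and counts from it cannot be told from those of HSPA1A. HSPA2, a further HSP70 gene, measured 120.0, 70.9 and 85.3 in TQ and 20.4, 21.6 and 25.8 in Combi, beside 29.4, 16.6 and 16.8 in control (-1.99, SE 0.32). HSPA6, an HSP70 gene that is expressed under strong stress, measured 26.9, 40.7 and 42.6 in TQ and 13.6, 12.7 and 14.4 in Combi, where all 3 were within the negative-probe background, so its log2 fold change of -1.45 is limited by that background. With cartridge as a block the values were -4.13 for HSPA1A, -1.325 for HSPA2 and -0.33 for HSPA6. That fit rests for Combi on replicate 1, set over control replicates 2 and 3. For HSPA1A and HSPA2 all of these samples were within the negative-probe background, so their block values are limited by it. The other heat shock genes on the panel were HSP90B1 (-0.44), a chaperone of the endoplasmic reticulum, and the small HSPB1 (0.16). They were not called, although HSP90B1 was called lower with TMM.

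The promoters of these genes are shown because heat shock factor binds an inverted pair of short repeats, and the letters can be looked at beside the values. Sequences are from RefSeq (GRCh38.p14) and cover the 250 bases before the annotated start, with each match to GAANNTTC or TTCNNGAA on either strand in capitals. HSPA1A lies at chr6:31815293-31815542 on the plus strand, with 1 match 106 bases before the start. HSPA6 lies at chr1:161524290-161524539 on the plus strand, with matches 180, 74 and 69 bases before the start, of which the last 2 overlap.
HSPA1A: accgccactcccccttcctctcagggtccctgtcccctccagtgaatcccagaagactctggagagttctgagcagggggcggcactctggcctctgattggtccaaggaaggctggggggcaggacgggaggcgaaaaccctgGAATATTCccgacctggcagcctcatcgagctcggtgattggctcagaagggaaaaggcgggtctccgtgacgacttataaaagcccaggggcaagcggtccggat
HSPA6: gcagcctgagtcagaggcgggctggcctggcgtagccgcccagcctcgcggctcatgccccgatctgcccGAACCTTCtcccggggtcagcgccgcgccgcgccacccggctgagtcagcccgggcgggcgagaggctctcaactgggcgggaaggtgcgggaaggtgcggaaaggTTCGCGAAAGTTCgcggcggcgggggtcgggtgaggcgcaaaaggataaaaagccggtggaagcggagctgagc
Such a match was found in 3 of the 5 heat shock genes with a promoter in the tables, and in 11.6% of the 35116 promoter windows of the same length. Besides HSPA1A and HSPA6, the gene with a match was HSP90B1 or HSPB1, neither of which was called after housekeeping scaling. The promoter of HSPA2 had none in this window although its counts moved with those of HSPA1A.

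Other stress genes that were high in TQ differed in their level in Combi. GADD45B, an inducible regulator of stress kinases, had 774, 585 and 662 scaled counts in TQ against 233, 209.7 and 259 in Combi and 209, 135 and 141 in control. Its log2 fold change of Combi over TQ was -1.52 (SE 0.15, adjusted p = 1.14e-07). DDIT3, encoding the transcription factor CHOP of the unfolded protein response, went from 1719, 1622 and 1328 to 1042, 721 and 819.9, with 1017, 1048 and 618 in control (-0.86). FOS, an immediate-early transcription factor, kept a high level in Combi. It measured 749, 821 and 894 in TQ and 638, 463 and 752 in Combi, each sample far above the 133, 141 and 104 of the control, and its difference between Combi and TQ (-0.41) was not called with housekeeping scaling, and called lower with TMM. DDIT4, an inhibitor of mTOR, moved the other way, from 142, 128 and 121 in TQ to 270.4, 355 and 349.8 in Combi (1.33), both below the control at 655, 493 and 398. Of the 11 stress genes on the panel, 5 were called lower, where 5.75% of all genes were, and 2 higher, a share below the 28.4% of all genes. The list's median was -0.44, against 0.56 over all genes and 0.34 over those with a mean of at least 20. With cartridge as a block the values were -0.92 for GADD45B, -0.29 for DDIT3 and 1.62 for DDIT4.

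Of the 3 replication-dependent histone H3 genes on the panel, both with high counts were lower in Combi. HIST1H3H had 23424, 21537 and 21103 scaled counts in TQ and 2094, 2428 and 2221 in Combi, which is -3.29 on the log2 scale (SE 0.21, adjusted p = 9.11e-11), 9.79-fold lower. HIST1H3B had 11171, 9823 and 10255 in TQ and 2982, 4204 and 3799 in Combi (-1.51, SE 0.22). Combi and TQ samples were far apart for both genes. These genes are so alike in their coding parts that a probe may capture several of them. HIST1H3G, at 29.4, 12.3 and 25.6 in TQ and 23.9, 15.3 and 13.2 in Combi, was above background in all TQ samples and in 1 Combi sample and was not called, and the other H3 genes H3F3A (0.07) and H3F3C (-0.31) and the variant H2AFX (-0.51) were not called, although H3F3C and H2AFX were called lower with TMM and H3F3A had a negative value with it (-0.30).

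The promoters of the pair with high counts are shown for the CCAAT boxes that histone promoters share, in capitals, from the same source and window. HIST1H3H, now named H3C10, lies at chr6:27809801-27810050 on the plus strand. HIST1H3B, now named H3C2, lies at chr6:26032100-26032349 on the minus strand and is printed 5′ to 3′ on that strand.
HIST1H3H: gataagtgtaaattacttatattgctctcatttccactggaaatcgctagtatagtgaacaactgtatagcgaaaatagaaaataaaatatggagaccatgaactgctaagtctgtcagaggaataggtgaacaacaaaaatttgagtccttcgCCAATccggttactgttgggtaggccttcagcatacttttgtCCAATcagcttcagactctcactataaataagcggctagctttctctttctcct
HIST1H3B: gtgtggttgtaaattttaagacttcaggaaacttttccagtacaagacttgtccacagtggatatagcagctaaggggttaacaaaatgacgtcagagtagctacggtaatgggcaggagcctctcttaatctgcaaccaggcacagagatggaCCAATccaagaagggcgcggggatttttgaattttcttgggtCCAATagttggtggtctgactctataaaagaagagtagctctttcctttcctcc
Both carry CCAAT at the same places, 96 and 54 bases before the start. The letters CCAAT, searched on both strands, were found in all 3 of the H3 genes HIST1H3B, HIST1H3G and HIST1H3H, and in 32.0% of all promoter windows. They were also found in 3 of the 5 heat shock genes and in 5 of the 10 p53 targets with a promoter, so they are not particular to the histone genes.

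Genes of cell division were more often lower than higher in Combi. Of the 44 members of the cell cycle list, 10 passed as lower and 4 as higher, where 5.75% and 28.4% of all genes were, and their median log2 fold change was -0.03 against 0.56. Only 2 of the 44 had a mean under 20. Over the 509 genes with a mean of at least 20 the median was 0.34, with 41 called lower and 165 higher. CCNB1, the cyclin of mitotic entry, measured 3677, 3656 and 3704 scaled counts in TQ and 1454, 1331 and 1229 in Combi. The TQ samples lay close together and every Combi sample was far below them, with a log2 fold change of -1.46 (SE 0.10, adjusted p = 3.65e-10). MYC, a driver of growth and proliferation, measured 2597, 2485 and 2307 in TQ and 1302, 1036 and 1149.9 in Combi (-1.08), with 1818, 1503 and 1879 in control. Of the 5 cohesin genes, STAG2 (1037 ± 80.0 against 458 ± 23.9, -1.18), SMC1A (-1.02) and RAD21 (-0.84) were called lower, where 5.75% of all genes were. SMC3, named after its values were seen, and SMC1B were not called. With cartridge as a block STAG2 was at -0.23, SMC1A at -0.30, RAD21 at -0.53, CCNB1 at -1.27 and MYC at -0.81. Of 15 genes for the licensing and copying of DNA, 10 were not called. In this list 2 were higher and 3 lower, where 28.4% and 5.75% of all genes were. CDC6, which loads the helicase, was at 2058 ± 103 in TQ and 1170.5 ± 146 in Combi (-0.82), and the helicase subunits MCM7 (-0.71) and MCM5 (-0.77) were also lower. PCNA, a p53 target as well, was higher, as was the polymerase subunit POLD4 (0.89, not with TMM). Of the CDK inhibitors, CDKN1A and CDKN1C (1.47) were higher with all 3 scalings and CDKN1B, encoding p27, was lower at 110.2, 117 and 107 in TQ and 59.1, 42.2 and 46.7 in Combi (-1.21). The gene of thymidylate synthase, the target of 5-FU, is not among the 730 genes.

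**Figure D3:**
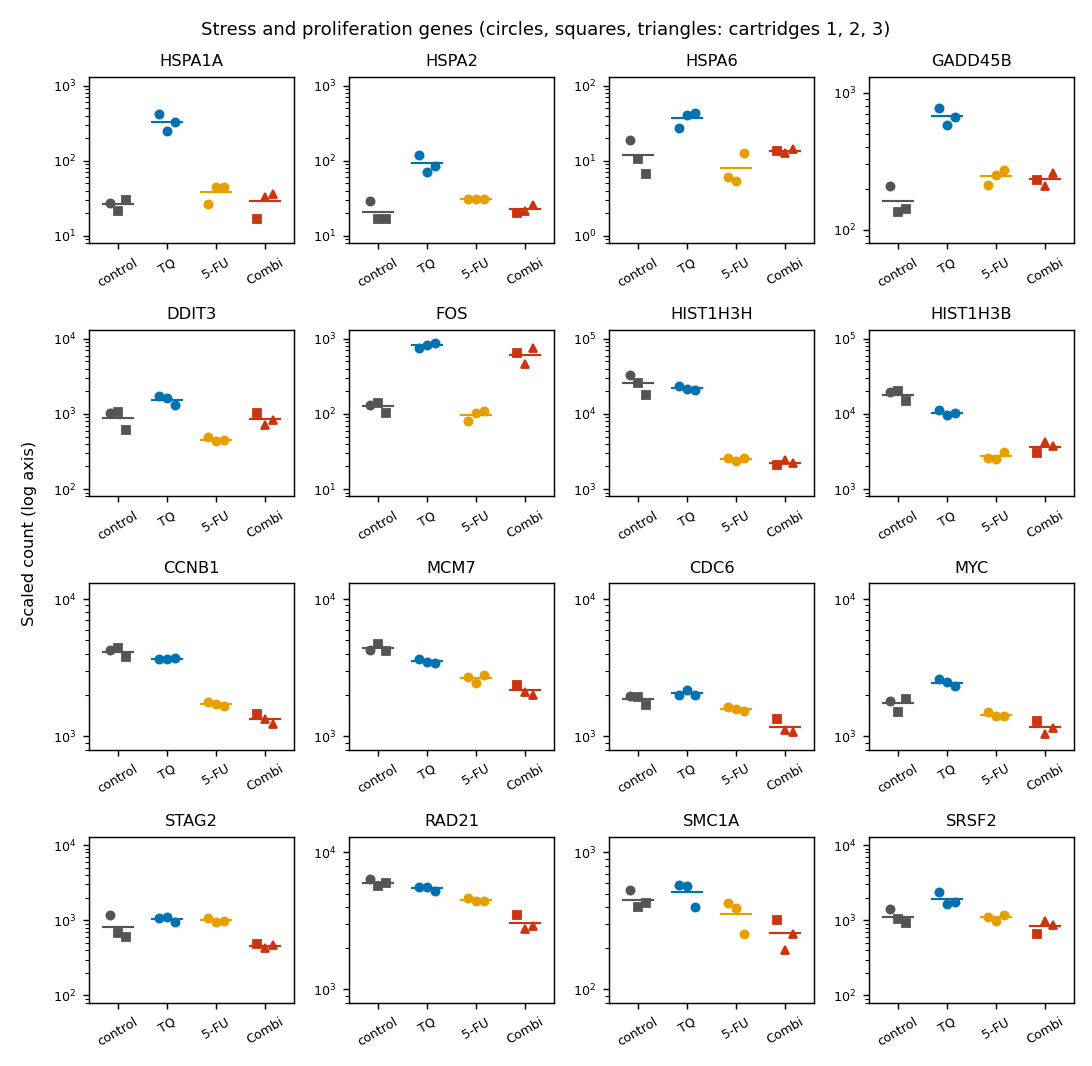
Scaled counts on a log axis of 16 stress and proliferation genes in the samples of control, TQ, 5-FU and Combi, with a bar at each mean and symbols by cartridge as in the p53 panels. HSPA1A, HSPA2 and GADD45B are highest in TQ, FOS is high in TQ and in Combi, and the histone genes and CCNB1 are low in 5-FU and in Combi.

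Part of the genes of adhesion and of the matrix were higher in Combi. Of 44 matrix and integrin genes, 16 were called higher (28.4% of all genes) and none lower, 13 with all 3 scalings against 14.7% of all genes, and 7 with cartridge as a block. LAMA3, the alpha chain of laminin-332 in the epithelial basement membrane, had 22, 22.2 and 23.9 scaled counts in TQ and 276, 259 and 232 in Combi. The difference was 11.2-fold, or 3.49 on the log2 scale (SE 0.18, adjusted p = 3.28e-12). LAMB3, the beta chain of the same laminin, went from 215, 232 and 167 to 661, 579.7 and 571 (1.54). The integrins that bind laminin-332 were higher as well. ITGB4 measured 485, 492 and 426 in TQ and 2201, 2643 and 2581 in Combi (2.40), and ITGA3 791, 845 and 863 and 2881, 2952 and 3089.7 (1.83). ITGA2, a collagen receptor subunit, measured 152, 163 and 152 and 633, 835 and 735 (2.23). COL4A5, a basement membrane collagen, measured 58.8, 69.7 and 51.2 and 358, 461 and 434 (2.76), and fibronectin FN1 17.1, 11.1 and 20.5 and 60.2, 74.8 and 67.1 (2.15). ITGA7 (2.40) rested on 12.2, 7.4 and 6.82 scaled counts in TQ, where only 1 sample was above background. E-cadherin CDH1 rose from 135 ± 18 to 545 ± 36.5 (2.04), the plasminogen activator PLAU from 494 ± 47.1 to 1904 ± 478 (1.95) and PLAT from 50.1 ± 3.92 to 241 ± 12.3 (2.27).

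Several receptors and ligands of developmental pathways stood higher in Combi, and part of them rested on low counts. NOTCH3, a Notch receptor, had 29.4, 29.6 and 32.4 scaled counts in TQ and 211, 263 and 288 in Combi (3.07, SE 0.21, adjusted p = 1.42e-10), with 83, 69.5 and 116 in control. Its ligands JAG1 (169, 168 and 181 against 415, 477 and 450.4, 1.38) and JAG2 (507, 507 and 520.1 against 1132, 1082 and 1128, 1.12) were higher too. Of the 20 Notch genes 8 were called higher (28.4% of all genes) and none lower, 5 with all 3 scalings (14.7%) and 3 with cartridge as a block. Of 13 WNT ligands 9 were called higher (28.4% of all genes), 7 with all 3 scalings (14.7%), and 5 of the 13 had a mean under 20. None of the 13 was called with cartridge as a block. WNT16 had the lowest adjusted p of the ligands, at 286, 339.7 and 380.3 in TQ and 852, 869 and 759 in Combi (1.29, adjusted p = 9.32e-07), and it stood at 917, 1128 and 1397 in control. WNT7B (1.56) had 41.6, 29.6 and 35.8 in TQ and 77.2, 115 and 105 in Combi. WNT7A (2.30) had 12.2, 4.93 and 13.6 in TQ, where no sample was above background, and 46.6, 43.7 and 45.5 in Combi. DKK1, a secreted WNT antagonist, rose from 868 ± 92.5 to 2282 ± 244 (1.39), and AXIN2, a target and brake of beta-catenin, was lower at 97.9, 92.5 and 118 in TQ and 46.6, 70.6 and 71.9 in Combi (-0.67). Beta-catenin itself, CTNNB1 (0.31), was not called, and its sign was negative with TMM (-0.06). In the whole WNT list of 60 genes, 23 were called higher and 3 lower, 10 and 3 with all 3 scalings, near the 14.7% and 5.75% of all genes. In the TGF-beta family 10 of 34 were higher and 1 lower, near or below the 28.4% and 5.75% of all genes, and none was called with cartridge as a block. TGFB1 rose from 212 ± 36.1 to 495 ± 93.2 (1.22), while BMP4, a ligand of the BMP branch, fell from 1034 ± 53.7 to 533 ± 73.1 (-0.96).

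Growth factors and their receptors gave 25 of 64 higher (28.4% of all genes) and none lower. With all 3 scalings 11 were higher, near the 14.7% of all genes, and with cartridge as a block 3, and 31 of the 64 had a mean under 20. NGFR, the low-affinity neurotrophin receptor, measured 78.3, 74.6 and 58 scaled counts in TQ and 320.4, 443 and 403 in Combi (2.47, SE 0.16). ERBB2 (208, 195 and 194 against 451, 494 and 455, 1.23) and EGFR (328, 269 and 283 against 491, 675 and 642, 1.06), receptor kinases of 1 family, were both higher with all 3 scalings. PGF, a ligand of the VEGF family, rose from 40.1 ± 12.6 to 148 ± 18.6 (2.01). In the RAS and MAPK cascade 9 of 48 genes were higher and 2 lower, below the 28.4% and 5.75% of all genes. RAC2, a small GTPase, was at 166, 153 and 124 and 234, 418 and 369.5 (1.22). RASA4, which turns RAS off, was at 31.8, 32.7 and 30.7 and 92, 108 and 118 (1.74), MAPK3, encoding ERK1, at 135, 142 and 145 and 323, 366 and 408 (1.38), and the adaptor GRB2 was lower (-0.64). MAP3K14, the kinase of the non-canonical NF-kB pathway, had 441, 279.9 and 314 in TQ and 219, 151 and 164 in Combi (-0.94). Of 18 immediate-early and ERK feedback genes 8 were higher and 1, MYC, lower, beside 28.4% and 5.75% of all genes. JUN had 66.1, 59.2 and 59.7 in TQ and 157, 192 and 181 in Combi (1.54) and the phosphatase DUSP4 308, 284 and 298 and 896, 924 and 979.8 (1.66). In the PI3K, AKT and mTOR list of 31 genes 11 were higher and 3 lower, beside 28.4% and 5.75% of all genes, and with all 3 scalings 3 were higher, a share below the 14.7% of all genes, and 3 lower. BAD, a BCL2 family member that AKT phosphorylates, was higher (136 ± 10.9 against 350.3 ± 8.8, 1.35), whereas PIK3R1, a regulatory subunit of PI3-kinase (-0.95), and the translation repressor EIF4EBP1 (-0.81) were lower.

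Chromatin, RNA and repair genes were called in both directions. Of 43 chromatin and histone genes 12 were higher, near the 28.4% of all genes, and 6 lower, where 5.75% of all genes were. With all 3 scalings 3 were higher, below the 14.7% of all genes, and 6 lower. PHF6, a chromatin protein, had 129.8, 126 and 114 scaled counts in TQ and 374, 450.0 and 427 in Combi (1.76), and the deacetylase HDAC11 41.6, 45.6 and 61.4 and 165, 207 and 237 (2.05). DNMT1, which keeps DNA methylation through replication, was lower at 1655, 1786 and 1653 in TQ and 1108, 907 and 918 in Combi (-0.80), as was the histone methyltransferase SETD2 (465 ± 80.9 against 217 ± 23.7, -1.10). Among 8 genes of RNA synthesis and processing 3 were lower (5.75% of all genes) and none higher, namely the splicing factor SRSF2 (1928 ± 389 against 838 ± 163, -1.19), FUBP1 (-1.05) and the nucleolar protein NPM1 (139.5, 121 and 167 in TQ and 75, 41.6 and 38.9 in Combi, -1.50). Of 39 genes of DNA damage and repair 7 were higher and 1 lower, 4 and 1 with all 3 scalings, so a smaller share was called higher than among all genes. ATM, a kinase that signals DNA breaks (58.8, 49.3 and 37.5 against 105, 134 and 152, 1.45), RAD52, a recombination protein (1.26), and the repair kinase PRKDC (1391, 1356 and 1451 against 2319, 2783 and 2485, 0.86, not with TMM) were higher, and the glycosylase NTHL1 was lower (-0.68).

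Apoptosis genes were called higher in 11 of 23 (28.4% of all genes) and lower in none, 6 with all 3 scalings (14.7%) and 3 with cartridge as a block, and FAS, BAX, TNFRSF10A, TNFRSF10B and TNFRSF10C, also in the p53 list, are among the 11. In the list of cytokines, JAK-STAT and NF-kB 22 of 74 were higher and 1 lower, 12 and 1 with all 3 scalings, close to the 14.7% of all genes, and 38 of the 74 had a mean under 20. RELA, a subunit of NF-kB, measured 159, 155 and 104 scaled counts in TQ and 268, 503 and 488 in Combi (1.59), with Combi replicate 1 well below the other Combi samples. Its inhibitor NFKBIA measured 296, 263 and 326 and 570.3, 639.7 and 644 (1.08). IL6R (1.66) and STAT4 (1.96) were also higher with all 3 scalings. BIRC3, an inhibitor of apoptosis that NF-kB induces, had 7.34, 6.17 and 10.2 in TQ and 30.7, 33.2 and 21.6 in Combi (1.88), and with cartridge as a block its value was -0.16.

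The study also listed RELA, ATM and COL4A5, described above, and further genes as altered in Combi relative to the single drugs. They are outside the list used here. It measured AXIN2, DKK2, FGF9, ID2, MYC and FOS by RT-qPCR as well, and beta-catenin as protein, and those measurements were not used here. Its panel values came from these same samples, so the values here are no independent evidence for them. The list holds 27 genes on the panel that the study named for Combi, or as WNT genes for TQ and SARB. Of them 12 were called higher and 5 lower than in TQ (28.4% and 5.75% of all genes), 8 and 5 with all 3 scalings (14.7% and 5.75% of all genes). SPP1, encoding osteopontin, had 19.6, 26.5 and 20.5 scaled counts in TQ and 70.4, 68 and 74.3 in Combi (1.62), and PLA2G10, a secreted phospholipase, 9.79, 10.5 and 17.1 and 42, 46.4 and 32.9 (1.71). PLA2G4C measured 26.9, 34.5 and 17.1 in TQ and 36.4, 31.6 and 36.5 in Combi, and its log2 fold change of 0.37 was not called. PRKACB, a catalytic subunit of protein kinase A, was lower (546, 575 and 435 against 423, 266 and 305, -0.67). ID2 (-0.51, called lower with TMM), TBL1XR1 (0.56), RAC1 (0.48) and PPP3CB (-0.07) were not called, and PPP3CA (0.71) was called only without TMM. FST, EGF and SPRY1, which were called higher, and PAK7, which was not, lay near the background, with at most 34.2 scaled counts in any TQ or Combi sample.

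The effect of 5-FU in the absence of TQ can be set beside these values because 5-FU against control shares no sample with Combi against TQ, although its dose of 15 µM was lower than the 35 µM in Combi. In that comparison 74 genes (10.1%) were called higher and 74 (10.1%) lower. Across the 509 genes with a mean of at least 20 in the Combi and TQ samples, the log2 fold changes of the 2 comparisons had a Pearson r of 0.31, a description over genes of samples that share a panel and, for 5-FU, TQ and control replicate 1, a cartridge. Of the 107 genes higher in Combi with all 3 scalings, 32 were also called higher in 5-FU, 64 were not called and 11 were called lower. Of the 42 lower genes, 12 were called lower in 5-FU, 29 were not called and 1 was called higher. The difference between these log2 changes, that of Combi over TQ minus that of 5-FU over control, was tested in the same fit. It was called above 0 in 213 genes (29.2%) and below 0 in 52 (7.12%). A cartridge difference would enter it, as Combi and 2 of the control samples ran on other cartridges, and with cartridge as a block 1 gene, DDIT4, was called, whereas 45 had an unadjusted p under 0.05.

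The p53 targets and histones showed what was alike and what was not. MDM2 was 2.05 higher on the log2 scale in 5-FU than in control and 2.08 higher in Combi than in TQ, with a difference of 0.02 (SE 0.14). HIST1H3H (-3.35 and -3.29, difference 0.06, SE 0.28), LAMA3 (3.23 and 3.49, 0.26, 0.27), NGFR (2.14 and 2.47, 0.32, 0.24) and CCNB1 (-1.26 and -1.46, -0.20, 0.14) also had differences that were not called. HIST1H3B (-2.73 and -1.51) fell less beside TQ, with a called difference of 1.22. CDKN1A differed too, at 2.18 in 5-FU against control and 3.63 in Combi against TQ, a difference of 1.45 (SE 0.25, adjusted p = 0.000195). BAX (1.07), ITGB4 (1.25) and PCNA (1.05) likewise had the larger change beside TQ. For SFN the order was the reverse, with 2.83 in 5-FU and 1.78 in Combi against TQ (difference -1.05, adjusted p = 2.42e-05), and TNFRSF10C (-1.03), LAMB3 (-1.36) and THBS1 (-1.74) went with it. In each of these 4 genes every control sample lay below every TQ sample, closely so for TNFRSF10C, with 67.5, 49.9 and 60.5 scaled counts in control against 68.5, 77.1 and 83.6 in TQ. NOTCH3 (0.42 and 3.07), COL4A5 (0.28 and 2.76) and CDH1 (0.09 and 2.04) were not called in 5-FU alone, and their differences of 2.66, 2.48 and 1.95 were called. The heat shock genes HSPA1A (0.56 in 5-FU against control) and HSPA2 (0.55) were not called in 5-FU alone either, and their differences were -3.99 (SE 0.62) and -2.54 (0.48), both called.

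**Figure D4:**
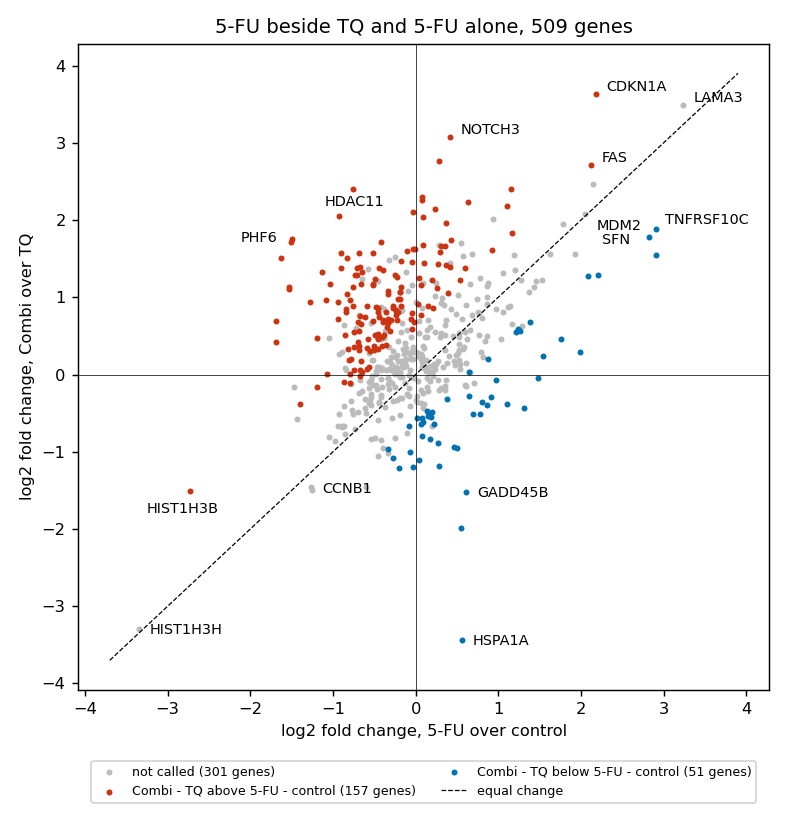
Each point is 1 of the 509 genes with a mean of at least 20, with the log2 fold change of 5-FU over control on the horizontal and of Combi over TQ on the vertical axis, and the dashed line marks equal change. Red points are the 157 genes with a called difference above 0 and blue points the 51 with one below 0. HIST1H3H, MDM2 and LAMA3 lie near the line, and HSPA1A and GADD45B lie far below it.

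With cartridge as a block, which for Combi rests on 1 sample, 27 of the 107 higher and 6 of the 42 lower genes were still called. At an unadjusted p under 0.05 that fit had 82 genes higher and 31 lower. Those lower genes were HSPA1A (-4.13), HIST1H3H (-2.82), HIST1H3B (-1.65), CCNB1 (-1.27), MYC (-0.81) and the helicase subunit MCM7 (-0.65). For HSPA1A, Combi replicate 1 and control replicates 2 and 3, on which this value rests, were within the negative-probe background. Among the 27 higher genes were CDKN1A (2.95, adjusted p = 7.14e-06), LAMA3 (4.04), NOTCH3 (2.65), FAS (2.36), NGFR (2.24), PLAU (2.08), MDM2 (1.74), BAX (1.69) and PRDM1 (1.91), a transcriptional repressor with 26.9, 30.2 and 18.8 scaled counts in TQ and 80.7, 55.9 and 59.3 in Combi. STAG2 moved from -1.18 to -0.23, CDKN1B from -1.21 to -0.21 and HDAC11 from 2.05 to 0.35 with the block, and these were no longer called. In these 3 genes control replicate 1, on the cartridge of the TQ samples, differed from control replicates 2 and 3, with 1183, 671 and 603 scaled counts for STAG2, 125, 77.1 and 74 for CDKN1B and 70.9, 163 and 210.1 for HDAC11.

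The labelled cell type was checked against marker genes. All 9 epithelial markers on the panel were above background in all 6 samples, with a summed level of 5883 to 6019 scaled counts in TQ and 14951 to 16527 in Combi. Of the 9, 8 were called higher, where 28.4% of all genes were. MET was the exception, and SFN, ITGB4, LAMA3, LAMB3 and CDH1 of the results above are among these 8, so that the sum rose with them. Of 7 mesenchymal markers 2 were above background in all 6 samples, and COL1A2, COL3A1, PDGFRA and PDGFRB were above it in none, with sums of 59 to 110 in TQ and 128 to 143 in Combi. Of the 7, 2 were called higher, near the 28.4% of all genes, and none lower. Of 11 leukocyte markers 2 were above background in all 6, and 3, CSF1R and IL2RA among them, in none (378 to 519 in TQ and 612 to 741 in Combi). Of the 11, 1 was called higher and 1 lower, where 28.4% and 5.75% of all genes were. FLT1, the only endothelial marker on the panel, had a sum of 2 to 17 in TQ and 5 to 11 in Combi.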

How the data were processed

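Transcripts of HCT116 cells were counted on NanoString nCounter cartridges in 15 samples, 3 for each of 5 treatments. The raw counts deposited by the authors are molecules per probe for 730 endogenous genes, 40 housekeeping genes, 6 positive and 8 negative probes, and their total per sample sets the precision. The deposited normalized values, a signal that the authors scaled to the geometric mean of the housekeeping genes in nSolver, served as an alternative. A deposited table of the authors' fold changes and p-values was not used. Samples were grouped by the labels.

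Counts were fitted with edgeR 4.0.16 (R 4.3.3) by the quasi-likelihood test over all 5 groups, with the housekeeping geometric mean as library size and Benjamini-Hochberg adjustment over 730 genes, without a filter on low counts. The script was tested on simulated data. Background was the mean of the negative probes plus 2 SD in each sample. Alternatives used TMM, DESeq2 1.42.0, limma 3.58.1 on log2 of the deposited values plus 1, background subtraction, cartridge blocks, a replicate block and left-out samples. Genes were named by rule, as the 15 largest changes each way, the 4 lowest adjusted p per list and direction, and genes fixed by name, of which 1 is not reported here. The remaining p53 targets, heat shock genes and histones, PLAU, CDH1, PRDM1, FLNC and the requirement of all 3 scalings were added after values were seen. Members and lists were chosen with earlier results of these data known. Gene symbols and promoters are from RefSeq, where all 730 symbols matched and 548 genes had a promoter.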

Additional observations from a re-analysis of the deposited data

Results flagged for a closer look

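The change from TQ to Combi differed from the change from control to 5-FU, by the test of that difference in the same fit, in 213 genes above and 52 genes below. With cartridge as a block 1 gene, DDIT4, was left. The following 7 genes were called in opposite directions in the 2 comparisons.

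DDIT4, the mTOR inhibitor, had a difference of 2.47 on the log2 scale. It fell from 655, 493 and 398 scaled counts in control to 186, 233 and 288 in 5-FU and rose from 142, 128 and 121 in TQ to 270.4, 355 and 349.8 in Combi. GADD45B had a difference of -2.13, with 209, 135 and 141 in control, 214, 251 and 274 in 5-FU, 774, 585 and 662 in TQ and 233, 209.7 and 259 in Combi.

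In the other 5 genes control replicate 1, which shared its cartridge with TQ and 5-FU, stood below control replicates 2 and 3, and the part of the cartridge was not tested beyond the block. The chromatin gene PHF6 had a difference of 3.26, with 251, 509 and 545 scaled counts in control replicates 1 to 3. HDAC11 had a difference of 2.97, with 70.9, 163 and 210.1 in control. MAPK3 had a difference of 2.09, with 235, 411 and 464 in control. WNT16 had a difference of 2.02, with 917, 1128 and 1397 in control. COL5A1, a fibrillar collagen, had a difference of 4.01 on low counts, with 6.92, 36.3 and 48.7 in control, 7.33, 10.6 and 12.5 in 5-FU, 4.9, 6.17 and 5.12 in TQ and 33, 19.5 and 38.9 in Combi.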

How the results depend on the processing

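The counts of genes called higher (207) and lower (42) in Combi moved with the scaling and the cartridge. TMM gave 115 and 95, DESeq2 with its own size factors 91 and 111, counts under 20 set to 20 gave 134 higher, and no threshold on the fold gave 70 lower. The methods' test on the deposited values gave 166 higher and 50 lower unadjusted, and 122 and 30 after Benjamini-Hochberg adjustment. With cartridge as a fixed block 35 and 7 were called, and 32 and 6 of these were among the genes of the main calls. Leaving out 1 sample gave 149 higher (without TQ replicate 2, the deepest of its group) to 214 (without TQ replicate 3) and 38 to 47 lower. For 5-FU against control the cartridge block gave 98 genes against 148, and for the difference of the changes the fixed and the random cartridge block gave 1 and 129 genes against 265. The other settings kept the counts within 1.5 times. The labels do not say whether the replicate numbers pair the samples. Deviations from the group means had correlations of 0.209, 0.324 and -0.253 for the same number, and of -0.377 to 0.31 for unlike numbers. With 3 samples a group these values cannot decide it. A replicate block gave 194 higher and 42 lower genes.

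Of the 113 called genes named by the rules, 20 lost their call with TMM, 21 with DESeq2's own size factors and 76 with the fixed cartridge block, where 3 more turned sign. Leaving out 1 sample ended the call of 2 to 8 of them, among those described above TNFRSF10A, PML, AXIN2, GRB2, NTHL1, PRKACB, FST, EGF and SPRY1. Signs turned mostly in dim or uncalled genes, as log2 fold changes of Combi over TQ. With TMM the values were -0.051 for PLA2G4C, -0.0843 for PAK7, -0.27 for FGF9, -0.0568 for CTNNB1, -0.20 for HSPB1 and -0.30 for H3F3A. With DESeq2's own size factors they were -0.16 for PLA2G4C, -0.25 for PAK7, -0.37 for FGF9, -0.0013 for RAC1, -0.15 for CTNNB1, -0.30 for HSPB1 and -0.40 for H3F3A. Background subtraction gave PAK7 -1.47 and FGF9 -0.21. With counts under 20 set to 20 the values were -1.01 for PDGFRA, -0.15 for PLA2G4C, -0.11 for EGF, -0.0391 for SPRY1, -0.0168 for IGFBP3, -0.80 for FST, -1.01 for PAK7, -0.0508 for BIRC3, -0.46 for DKK2 and -0.24 for FGF9. The cartridge block gave 0.33 for PIK3CG (main -2.10), -0.0655 for COL5A1 (main 2.41), -0.45 for PLA2G4C, -0.16 for BIRC3 (main 1.88), -0.037 for DKK2, -0.20 for FGF9, 0.12 for PPP3CB, 0.084 for THBS1 and -0.0647 for HSPB1. The random block gave PPP3CB 0.0445 and HIST1H3G 0.10, the housekeeping median ratio PPP3CB 0.0095, and the deposited values PDGFRA -0.0662, PAK7 -0.89 and FGF9 -0.23. Leaving out 1 sample gave ranges that cross 0 for PAK7 (-0.44, without TQ replicate 2, to 1.04), FGF9 (-0.14, without TQ replicate 2, to 0.21), PPP3CB (-0.22 to 0.0506, without TQ replicate 3) and HSPB1 (-0.16, without Combi replicate 2, to 0.47). Except with counts under 20 set to 20, where the floor itself sets the value, the cause of these changes was not tested. In 91 genes no Combi or TQ sample was above background, and the 12 of them that were called higher rest on counts within it.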
